A study of Mus musculus with 25 samples.

Results

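Collagen genes were examined in 25 mouse hearts profiled by RNA sequencing. They were taken as the rows of the count table whose mouse symbol is Col, a number, the letter a and a number, which gave 44 of 56941 genes. The hearts carried the genotype label WT or MCT1KO and the treatment label no pump, saline or Ang/PE. Slc16a1 encodes MCT1, a carrier of lactate and other monocarboxylates, and Ang/PE stands for neurohormonal agonists given to cause myocardial hypertrophy. WT hearts numbered 4 without a pump, 6 with saline and 3 with Ang/PE. Hearts labelled MCT1KO numbered 3, 4 and 5 in the same order. Strain, sex, age, the allele or driver behind the MCT1KO label, the doses and the length of infusion are not given in the labels, and nothing there says which hearts were handled together. Each heart is 1 sample with 1 replicate number, and nothing more is said of the animals behind them.

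Collagens are triple helices of alpha chains, and each gene encodes 1 kind of chain. Fibrillar collagens assemble into the fibrils that carry tension in the heart wall, basement membrane collagen IV forms the sheet around muscle cells and capillaries, and FACIT collagens sit on the surface of fibrils and space them. In the heart, fibroblasts make most of the fibrillar chains, whereas vessel and muscle cells contribute to the basement membrane, and new fibrillar collagen is a known part of scarring in overloaded hearts. The remaining types form beaded filaments (type VI), anchoring fibrils (VII), short-chain networks (VIII), transmembrane collagens and the basement membrane-linked types XV and XVIII.

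The libraries held 12216704 to 24880683 counts, and collagen genes took 0.178% to 0.495% of them (median 0.270%). Libraries were deeper without a pump (18382102 to 24880683 counts) than in Ang/PE hearts labelled MCT1KO (12216704 to 16565155 counts). The 5 ventricular muscle markers summed to between 24389 and 49864 CPM in each heart, where CPM is a gene's count relative to the scaled total of its library. Slc16a1, the gene that the MCT1KO label names, had mean levels of 203 ± 36.8, 199 ± 29.9 and 214 ± 10.6 CPM (SD) in WT hearts with no pump, saline and Ang/PE. In MCT1KO hearts these were 199.8 ± 29.6, 158 ± 26.0 and 189.8 ± 21.9 CPM. Between genotypes its log2 differences were -0.02, -0.33 and -0.18, with edgeR adjusted p of 0.976, 0.219 and 0.807. No heart had fewer than 2243 Slc16a1 counts, and a gene-level count says nothing of a deletion that leaves most of the transcript, so genotype rests on the label throughout. Xist, the RNA of the inactive X chromosome of female cells, reached 100 CPM in 2 of 4 WT no-pump, 1 of 6 WT saline and 3 of 3 WT Ang/PE hearts. In MCT1KO hearts 0 of 3, 3 of 4 and 4 of 5 reached it, in the same order. The summed level of 3 atrial markers was at most 5.73 CPM in hearts without a pump or with Ang/PE and reached 1136 CPM in WT saline and 3679 CPM in MCT1KO saline hearts. MCT1KO saline replicate 4 stood apart, with that highest atrial sum, 1216 CPM of 5 adipocyte markers and the lowest ventricular sum.

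The promoters of Col11a1 and Col8a1 are shown because both genes rose under Ang/PE in the hearts labelled MCT1KO and the 200 bases before their annotated starts hold no annotated exon. Sequences are from RefSeq on GRCm38.p6 and are written 5′ to 3′ along the gene, ending at the base before the start. Capitals mark the motifs found. Col11a1, a fibril-nucleating chain, has this window at chr3:114030340-114030539 on the plus strand, and Col8a1, a short-chain network collagen, at chr16:57754738-57754937 on the minus strand.
Col11a1: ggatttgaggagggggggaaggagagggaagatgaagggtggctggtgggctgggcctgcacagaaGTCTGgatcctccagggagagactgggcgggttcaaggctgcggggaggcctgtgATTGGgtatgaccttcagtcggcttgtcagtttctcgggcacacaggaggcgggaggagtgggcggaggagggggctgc
Col8a1: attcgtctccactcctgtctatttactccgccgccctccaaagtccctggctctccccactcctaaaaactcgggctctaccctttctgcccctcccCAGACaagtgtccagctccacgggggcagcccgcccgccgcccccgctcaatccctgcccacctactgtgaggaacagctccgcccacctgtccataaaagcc
The motifs searched on both strands were CCAAT, the TATA-type TATAAA, the SMAD-type CAGAC and the TEAD-type GGAATG. The Col11a1 window holds a reverse CAGAC beginning at position -134 and a reverse CCAAT at -79, and the Col8a1 window holds a forward CAGAC at -103. Among 32851 mouse promoter windows of the same length, 29.3% held CCAAT, 9.96% TATAAA, 35.5% CAGAC and 10.1% GGAATG. Among 38 windows of the 35 collagen genes matched by symbol, 10, 4, 13 and 4 held them, so the collagen shares were close to those of all promoters. Such a match is a description of letters and not a site. Of the other genes that passed a test against saline and have an exon-free window, Col23a1 and Col4a6 hold none of the 4 motifs there. Col4a1 and Col4a2 lie head to head on chromosome 8, and their annotated starts overlap by 22 bases (chr8:11312805-11312826). Col4a5 and Col4a6 are a like pair on the X chromosome with 1342 bases between the starts.

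Of the 44 genes, 40 were detected, meaning 3 or more counts in at least 3 hearts. These were 10 of 11 fibrillar, 6 of 6 basement membrane, 8 of 9 FACIT and 16 of 18 other genes. The 4 not detected were Col2a1, the main chain of cartilage, with at most 7 counts and 3 or more in 2 hearts, Col9a1, its FACIT partner, with at most 3 counts, and Col6a4 and Col10a1, each with at most 1 count. Just inside the threshold lay Col24a1 with 3 or more counts in 7 hearts, Col17a1 and Col19a1 in 10, and Col9a2 in 11. The filter on low counts left 35 genes for testing, namely 9 fibrillar, 6 basement membrane, 6 FACIT and 14 other. Col9a2, Col17a1, Col19a1, Col24a1 and Col26a1 were detected but not tested. Col21a1 was not analysed here.

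Per length, the basement membrane chains Col4a1 and Col4a2 were the most abundant collagen transcripts of these hearts. Over 25 hearts the mean was 82.1 ± 17.4 CPM per kb of exon (SD) for Col4a1 and 69.1 ± 14.8 for Col4a2. The fibrillar Col3a1 (34.9 ± 14.4) and Col1a1 (32.7 ± 13.1) came next, followed by Col15a1 (26.9 ± 5.01), Col6a1 (25.1 ± 3.90) and Col1a2 (17.4 ± 6.46). Col6a2, Col5a1, Col6a3, Col4a5 and Col14a1 averaged 14.2, 11.8, 10.1, 9.24 and 7.67 CPM per kb. Ranges over the hearts overlapped between all neighbours in this order of 12 genes. Within hearts, Col4a1 exceeded Col4a2 per kb in 25 of 25, by 1.05 to 1.40 times. Exon lengths are from GENCODE M21 and cover every annotated exon, rarely used ones included.

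**Figure D1:**
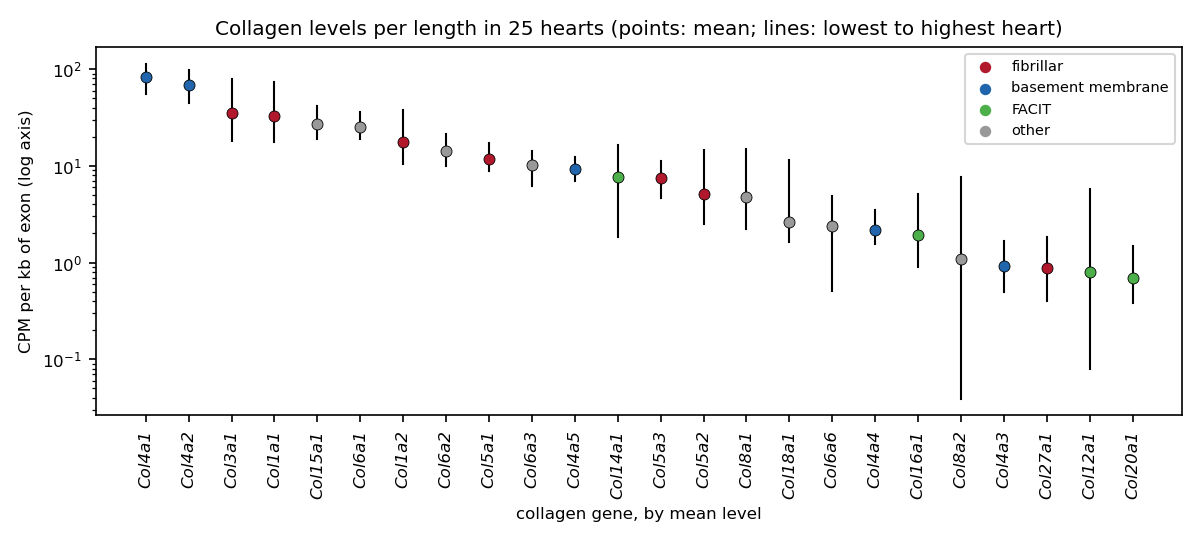
Levels of the 24 most abundant collagen genes in CPM per kb of exon on a log axis. Points are means over 25 hearts, lines run from the lowest to the highest heart, and colours give the class. Col4a1 and Col4a2 lead at 82.1 and 69.1, and Col8a2 and Col12a1 have the longest lines.

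The spread over the hearts was small for some of the abundant chains, larger for others, and wide for some of the scarce ones. From the lowest to the highest heart Col4a1 spanned 1.05 on the log2 scale, Col4a2 1.13, Col6a1 0.93 and Col5a1 0.96. Col1a1, Col1a2 and Col3a1 spanned 2.04, 1.85 and 2.12. Among the tested genes of low abundance the span was 6.87 for Col8a2, 6.61 for Col11a1, 6.05 for Col12a1 and 5.41 for Col22a1. Basement membrane genes took a median of 37.2% to 45.6% of all collagen CPM over the 6 groups, fibrillar genes 29.2% to 37.5%, the other types 20.6% to 22.5% and FACIT genes 1.45% to 3.42%.

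Calls across the 12 comparisons came from edgeR's quasi-likelihood test on all 17682 tested genes, with Benjamini-Hochberg adjusted p below 0.05. In MCT1KO hearts, Ang/PE against saline called 7 of 35 collagen genes, where 4.46% of all tested genes were called. The 5 higher were Col22a1, Col11a1, Col8a1, Col4a1 and Col4a2 (1.75% of all genes), and the 2 lower were Col6a6 and Col4a6 (2.7%). The mean of this step over both genotypes called 8 of 35, where 8.12% of all genes were called. The 6 higher were Col11a1, Col12a1, Col8a1, Col8a2, Col4a1 and Col4a2 (3.89% of all genes), and the 2 lower were Col6a6 and Col23a1 (4.22%). Ang/PE against no pump in hearts labelled MCT1KO called 2 of 35 against 0.503% of all genes, with Col22a1 higher (0.249% of all genes) and Col6a6 lower (0.254%). These 3 comparisons share the Ang/PE hearts labelled MCT1KO, so their lists are not separate evidence. Without MCT1KO saline replicate 4, 0 collagen genes and 39 of all genes were called against saline in MCT1KO hearts, and 3 collagen genes over both genotypes. Without WT Ang/PE replicate 3, 1 collagen gene was called over both genotypes, and without MCT1KO Ang/PE replicate 5 the 3 comparisons called 3, 3 and 0. Without MCT1KO no-pump replicate 2, 0 were called against no pump. The atrial markers that were high in MCT1KO saline replicate 4 were also high in other saline hearts, though not in all, so their score partly follows the saline label. With the atrial and adipocyte marker scores as covariates, 0 collagen genes were called in either comparison against saline and 5 against no pump. With Xist as a covariate the 3 counts were 5, 0 and 0. Beyond these fits, the part of other tissue and of sex in the results was not tested.

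The other 9 comparisons called 0 of 35 collagen genes in the edgeR test. Between genotypes, 0.0% of all genes were called under each treatment. At an unadjusted p below 0.05, 1 collagen gene was lower in MCT1KO without a pump, beside 6.74% of all genes. With saline 8 were higher, beside 8.43%, and with Ang/PE 13 were higher, beside 3.99%. DESeq2 called 0, 0 and 1. In WT hearts, the step from saline to Ang/PE called 0.017% of all genes, and 2 collagen genes were lower at an unadjusted p below 0.05, beside 9.58% of all genes. DESeq2 called 0 there, and a fit of only those groups called 1. Against no pump, Ang/PE in WT hearts had 0 collagen genes at an unadjusted p below 0.05, beside 0.0% of all genes called and 9.02% at that unadjusted p, and DESeq2 called 0. Saline against no pump called 6.61% of all genes in WT hearts and 0.00566% in hearts labelled MCT1KO. The collagen genes at an unadjusted p below 0.05 were 2 higher and 1 lower in WT, beside 11.4% and 12.9% of all genes, and 16 higher in MCT1KO, beside 7.43%, and DESeq2 called 0 and 1.

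Whether the Ang/PE step differed between genotypes was tested by the interaction, which called 0 of 35 collagen genes and 0.0% of all genes. At an unadjusted p below 0.05, 2 collagen genes were positive, beside 7.48% of all genes. These were Col22a1 (log2 difference of the steps 4.01, SE 0.98, edgeR adjusted p = 0.294) and Col4a2 (0.58, SE 0.21, adjusted p = 0.297). The interaction of genotype and pump also called 0, where 0.00566% of all genes were called. Here 7 collagen genes, all positive, had an unadjusted p below 0.05, beside 8.86% of all genes, with Col6a2 (0.61, SE 0.21) and Col6a3 (0.57, SE 0.24) at edgeR adjusted p of 0.152 and 0.224. DESeq2 called 0 in both interactions. The presence of calls in hearts labelled MCT1KO and their absence in WT hearts is therefore not a difference that these tests detected.

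The directions of all 35 genes can be set beside the calls. For Ang/PE against no pump in hearts labelled MCT1KO, 31 of 35 log2 differences were positive, with a median of 0.50 beside -0.00296 for all genes, and at an unadjusted p below 0.05, 20 were higher and 1 lower, beside 7.01% and 6.09% of all genes. For saline against no pump in the same label, 30 of 35 were positive with a median of 0.51 beside 0.01. The no-pump hearts are shared by both. In WT hearts, saline against no pump had 26 of 35 positive with a median of 0.12 beside 0.00203. Against saline, Ang/PE had 19 of 35 positive in MCT1KO and 15 in WT hearts. The medians were 0.02 and -0.04, beside -0.0108 and -0.0106 for all genes. In WT hearts, Ang/PE against no pump had 23 of 35 positive with a median of 0.09 beside -0.0089. Between genotypes the positive share was 14 of 35 without a pump, 31 with saline and 30 with Ang/PE. Over all genes it was 49.6%, 54.7% and 50.8%. The collagen medians were -0.06, 0.32 and 0.30, beside -0.00269, 0.0282 and 0.00424 for all genes. RLE scaling in place of TMM left 31, 30, 27, 19, 16, 24, 14, 31 and 30 of the 35 collagen genes positive, in the order of comparisons just given.

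**Figure D2:**
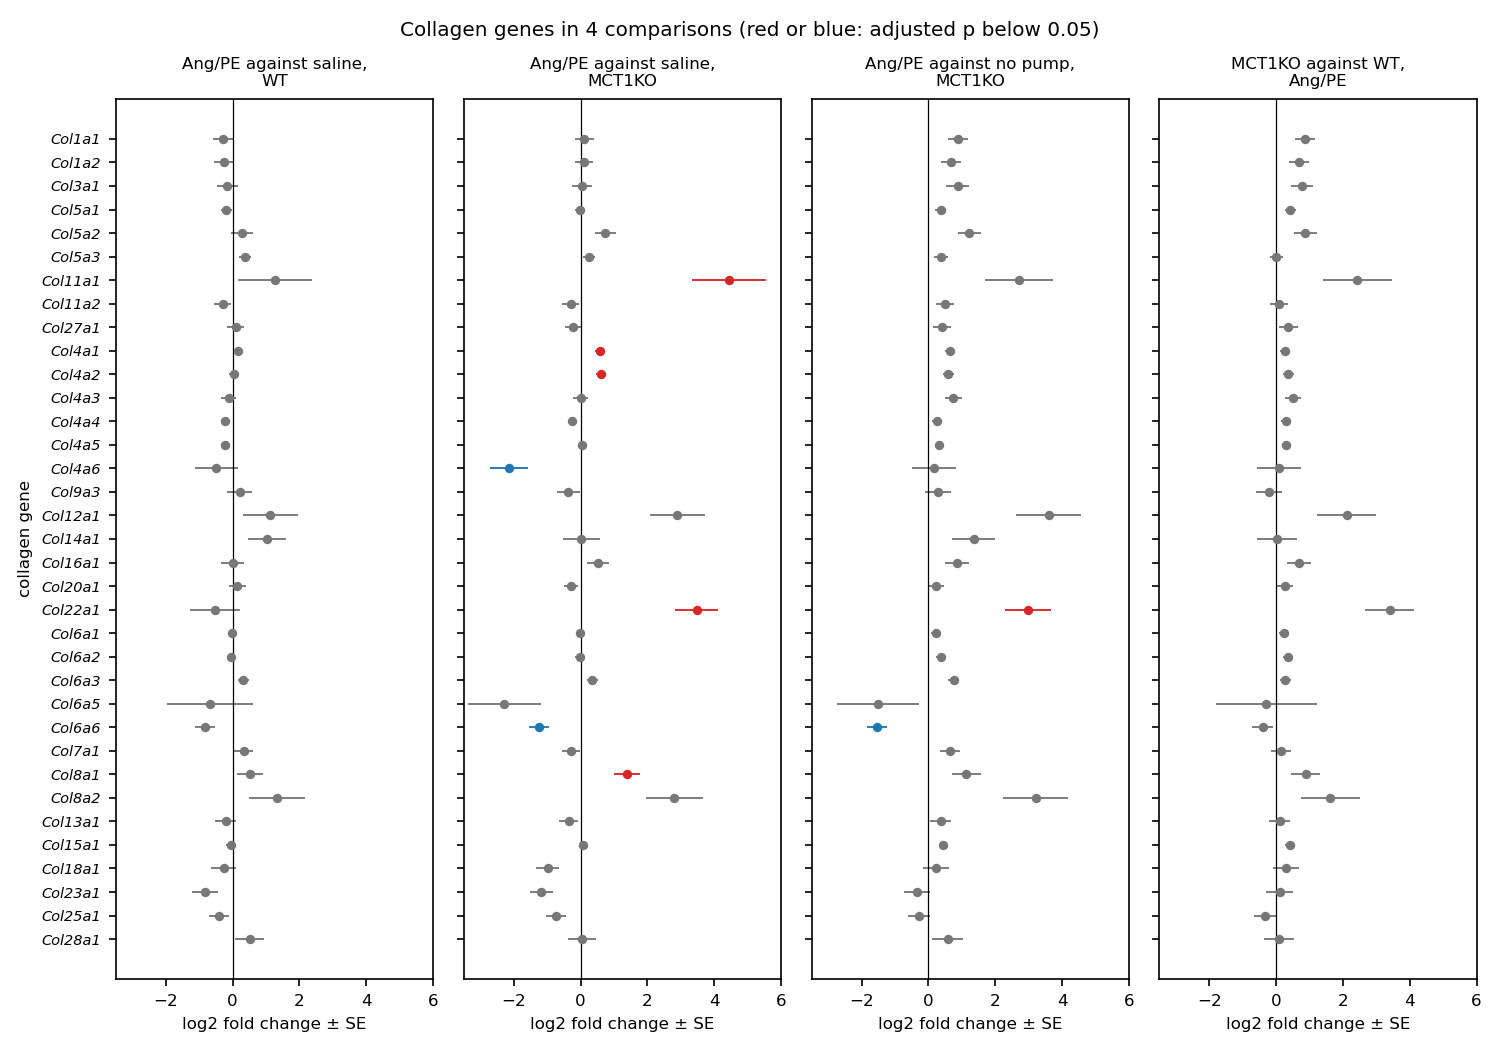
Log2 fold changes with their standard errors for the 35 tested collagen genes in 4 comparisons, ordered by class. Red and blue points had an edgeR adjusted p below 0.05: 7 in MCT1KO hearts against saline, 2 against no pump, and 0 in the other panels.

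Among the fibrillar genes, the major chains passed no test, and their high values came from a few hearts. Col1a1, the alpha 1 chain of type I collagen, was at 146, 481, 253, 213 and 372 CPM in the Ang/PE hearts labelled MCT1KO and at 259.8, 270.1, 182 and 369 in the saline hearts of that label. In WT hearts it ran from 153 to 199.9 CPM without a pump, from 117 to 267 with saline (median 199) and from 137 to 179 with Ang/PE. The Ang/PE hearts labelled MCT1KO thus held the highest value and overlapped every other group. Their log2 difference from WT Ang/PE hearts was 0.86 (SE 0.31, edgeR adjusted p = 0.692) and from MCT1KO saline hearts 0.12 (SE 0.27, adjusted p = 0.857).

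Col3a1, the type III chain that forms fine fibrils with type I, followed the same hearts. In Ang/PE hearts labelled MCT1KO it was at 223, 778, 353, 306 and 617 CPM, and in the WT Ang/PE hearts at 192, 309 and 299 CPM. Col5a2, a type V chain that helps to start fibrils, was at 44.1, 139, 57.5, 47.3 and 121 CPM in the MCT1KO and at 32.4, 40.0 and 62.2 CPM in the WT Ang/PE hearts. Replicates 2 and 5 were the high ones for each of these genes, and replicate 1 lay within the WT range. All 5 Ang/PE values of Col5a2 exceeded the MCT1KO no-pump hearts (26.1 to 42.9 CPM), as for 4.49% of all genes, a log2 difference of 1.22 (SE 0.35) with an edgeR adjusted p of 0.116. Col1a2 and Col5a1, the partner chains of types I and V, ran from 129 to 465.5 CPM and from 75.6 to 147 CPM over all hearts without a call. Col5a3, another type V chain, was at 50.6 to 75.7 CPM in WT hearts without a pump and 31.8 to 50.5 with saline, groups that did not overlap, where 6.22% of all genes were lower without overlap. Its log2 difference was -0.48 (SE 0.17) with an edgeR adjusted p of 0.094. Without a pump, Col5a3 differed by -0.48 (SE 0.21, adjusted p = 0.369) between MCT1KO and WT hearts, the smallest p of the collagen genes there.

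**Figure D3:**
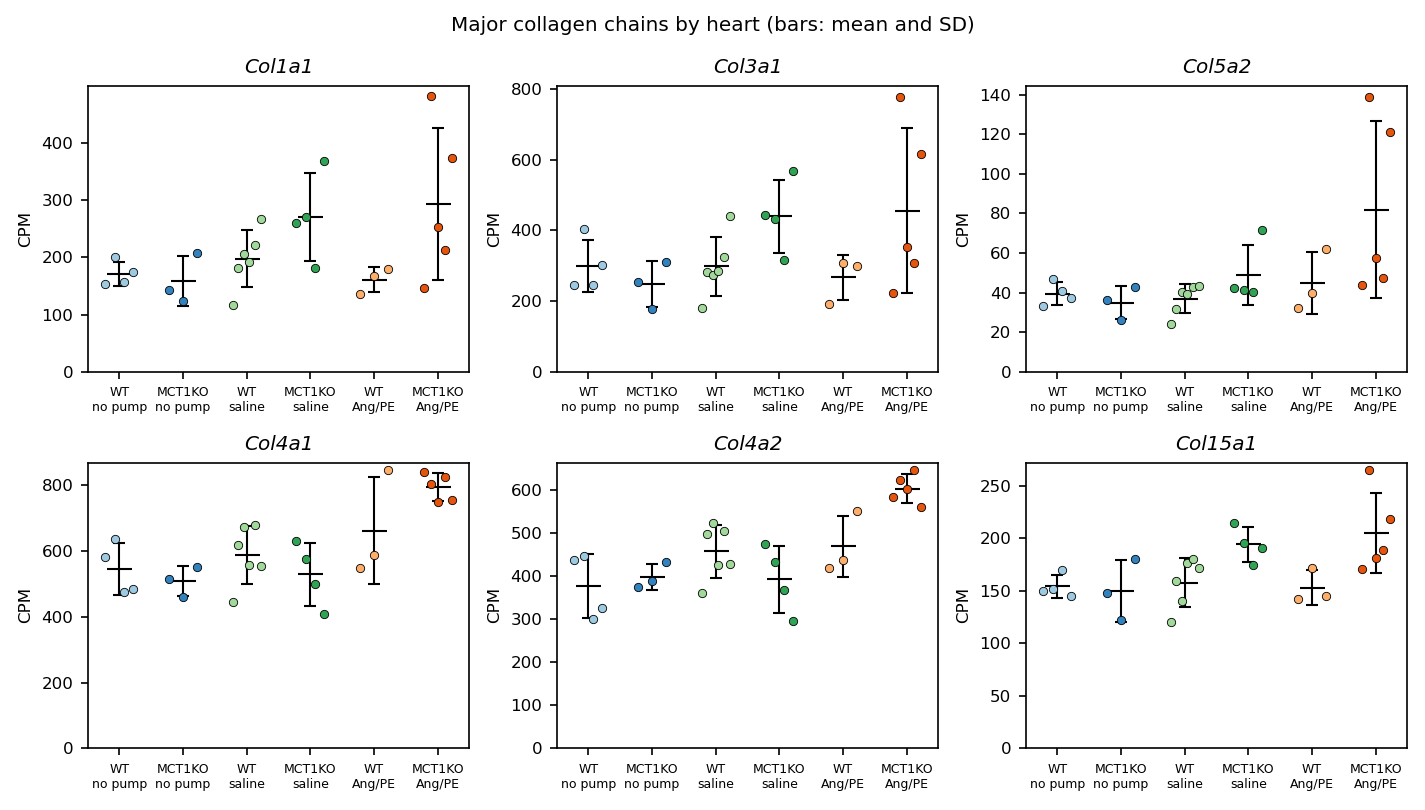
CPM of 6 abundant collagen chains in each of 25 hearts, by group. Points are hearts, horizontal bars are group means and whiskers are 1 SD. Col4a1 and Col4a2 are high in all 5 Ang/PE hearts labelled MCT1KO, whereas Col1a1, Col3a1 and Col5a2 are high in 2 of them.

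Col11a1, a minor fibrillar chain best known from cartilage, was the fibrillar gene that rose. In Ang/PE hearts labelled MCT1KO it was at 0.183, 7.47, 3.34, 0.673 and 11.3 CPM, and in the saline hearts of that label at 0.370, 0.131, 0 and 0.295 CPM. In WT hearts it was at 1.01, 0.349 and 1.21 CPM with Ang/PE and ran from 0 to 0.965 CPM with saline (median 0.285). The groups overlapped through MCT1KO Ang/PE replicate 1, and replicates 2, 3 and 5 lay above every other heart. The log2 fold change against saline in hearts labelled MCT1KO was 4.45 (SE 1.10, edgeR adjusted p = 0.0266) and its size depends on the few counts of the saline hearts. Without single hearts it ran from 3.80 to 4.94 with adjusted p up to 0.112, and it missed the threshold without MCT1KO saline replicate 2 (adjusted p = 0.0556) or 4 (0.112) or without Ang/PE replicate 5 (0.0641). Over both genotypes the mean change was 2.87 (SE 0.79, edgeR adjusted p = 0.031), and without WT Ang/PE replicate 3 it was 2.71 (adjusted p = 0.119). In the no-pump hearts, MCT1KO replicate 3 had 1.88 CPM and the other 6 hearts at most 0.350 CPM.

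Among the basement membrane genes, Col4a1 and Col4a2 rose together under Ang/PE in the hearts labelled MCT1KO. These chains form the common collagen IV trimer of vessels and muscle. Col4a1 was at 841, 803, 748, 827 and 756 CPM with Ang/PE, and at 631, 575, 500.3 and 409.9 CPM with saline. Col4a2 was at 584, 622, 603, 646 and 559.8 CPM with Ang/PE and at 475, 432, 367 and 296 CPM with saline. For both genes every Ang/PE heart lay above every saline heart of the label, which 3.06% of all genes did. The log2 fold changes were 0.59 (SE 0.15, edgeR adjusted p = 0.0235) for Col4a1 and 0.62 (SE 0.14, adjusted p = 0.0169) for Col4a2. Without MCT1KO saline replicate 4, the lowest of that group, they were 0.48 and 0.50 with edgeR adjusted p of 0.133 and 0.0999. Without Ang/PE replicate 1 or 4, Col4a1 had an adjusted p of 0.0512 or 0.0505.

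In WT hearts Col4a1 was at 547, 588 and 847 CPM with Ang/PE and ran from 446 to 679 CPM with saline (median 588). Col4a2 was at 419, 437 and 550.3 CPM with Ang/PE and ran from 361 to 524 CPM with saline (median 463). The WT groups overlapped, and WT Ang/PE replicate 3 held the highest Col4a1 value of all 25 hearts. The log2 change averaged over both genotypes was 0.38 (SE 0.10, edgeR adjusted p = 0.0282) for Col4a1 and 0.33 (SE 0.10, adjusted p = 0.046) for Col4a2. Without WT Ang/PE replicate 3 these were 0.27 and 0.26 with edgeR adjusted p of 0.162 and 0.191. Against no pump, Col4a2 in WT Ang/PE hearts differed by 0.31 (SE 0.16, edgeR adjusted p = 0.566). The mean change of Col4a2 kept its call without 4 and that of Col4a1 without 16 of the 18 hearts left out in turn. Against no pump, the MCT1KO Ang/PE hearts again lay above all 3 hearts for both genes, which 4.49% of all genes did, with log2 differences of 0.64 and 0.60 and edgeR adjusted p of 0.0667 and 0.0821. Markers of endothelial cells, a known source of these chains, overlapped between the groups: the 5 endothelial genes summed to 741 to 960.4 CPM in MCT1KO Ang/PE and 759 to 893 CPM in MCT1KO saline hearts. The 5 ventricular muscle markers summed to 33197 to 46330 and 24389 to 41201 CPM in these groups. Their median log2 difference was 0.44, with 1 called higher and 0 lower, where 1.75% and 2.7% of all genes were. The part of cell types in the Col4a1 and Col4a2 differences was not tested. In bulk tissue, a change in the number of cells of a type and a change in RNA per cell cannot be told apart.

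Col4a6, a chain of smooth muscle and epithelial basement membranes, was lower under Ang/PE than with saline in hearts labelled MCT1KO. It was at 7.40, 5.50, 3.499 and 42.6 CPM with saline and at 1.83, 4.96, 2.15, 3.36 and 4.08 CPM with Ang/PE. The group difference came with 1 heart, saline replicate 4, and the rest overlapped. On the log2 scale the difference was -2.15 (SE 0.57, edgeR adjusted p = 0.0354), and without that heart it was -0.73 (adjusted p = 0.440). With the atrial and adipocyte marker scores as covariates it turned to 0.53 (adjusted p = 0.800). Leaving out Ang/PE replicate 1, 3, 4 or 5 gave edgeR adjusted p of 0.0819, 0.073, 0.0688 and 0.0625. Against WT saline hearts, which ran from 2.15 to 6.60 CPM (median 4.49), the log2 difference was 1.75 (SE 0.52, edgeR adjusted p = 0.154).

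Col4a4 and Col4a5, chains of tissue-restricted collagen IV trimers, had small p in comparisons of saline with no pump, without a call. Col4a4 was at 27.0, 27.6, 22.7 and 37.3 CPM in MCT1KO saline and at 20.3, 19.6 and 20.2 CPM in MCT1KO no-pump hearts. The groups did not overlap, as for 4.67% of all genes, and the log2 difference was 0.52 (SE 0.15, edgeR adjusted p = 0.178). Col4a5 ran from 55.8 to 74.1 CPM in WT saline (median 65.7) and from 46.8 to 57.6 CPM in WT no-pump hearts, with a log2 difference of 0.30 (SE 0.11, adjusted p = 0.0975).

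Among the FACIT genes, Col22a1 had the smallest p of the collagen genes when Ang/PE was set against saline in MCT1KO hearts. Type XXII collagen is known from tissue junctions such as the muscle-tendon junction. In Ang/PE hearts labelled MCT1KO it was at 1.10, 12.3, 4.38, 0.897 and 10.6 CPM, and in saline hearts of the label at 0.528, 0.524, 0.625 and 0.413 CPM. In WT hearts it was at 0.537, 0.349 and 0.786 CPM with Ang/PE and ran from 0.174 to 1.19 CPM with saline (median 0.821). In MCT1KO hearts the Ang/PE and saline groups did not overlap, but replicates 1 and 4 stayed within the range of the WT saline hearts while replicates 2, 3 and 5 lay above all hearts of other groups. The log2 fold change against MCT1KO saline was 3.49 (SE 0.65, edgeR adjusted p = 0.011) and against MCT1KO no pump 2.98 (SE 0.68, adjusted p = 0.047). Without MCT1KO saline replicate 4 the former was 3.39 with an edgeR adjusted p of 0.0554. The latter missed the threshold without any 1 of the 3 no-pump hearts or without Ang/PE replicate 2 or 5, with adjusted p from 0.0885 to 0.260. Against WT Ang/PE hearts it was higher in 5 of 5 hearts, which 3.0% of all genes were, with a log2 difference of 3.40 (SE 0.73) and an edgeR adjusted p of 0.692. Col22a1 had between 3 and 177 counts in a heart.

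Col12a1, which binds the surface of type I fibrils, spanned the same hearts. It was at 4.75, 88.3, 26.4, 6.88 and 79.2 CPM in MCT1KO and at 7.22, 7.48 and 14.2 CPM in WT Ang/PE hearts. With saline it was at 4.49, 4.45, 1.25 and 11.9 CPM in MCT1KO and ran from 1.22 to 10.4 CPM in WT hearts (median 3.65). Only replicates 2, 3 and 5 of the MCT1KO Ang/PE hearts exceeded the range of the other 22 hearts. The mean log2 change over both genotypes was 2.01 (SE 0.57, edgeR adjusted p = 0.0369), whereas in MCT1KO alone it was 2.90 (SE 0.83) with an adjusted p of 0.0508. Leaving out any of 10 hearts raised the adjusted p of the mean change above the threshold, to at most 0.133 without WT Ang/PE replicate 3. Col14a1, a FACIT chain of fibroblasts, ran from 12.9 to 98.2 CPM within the 4 WT no-pump hearts alone and passed in no comparison. Col20a1 was at 4.01, 4.58, 3.19 and 7.67 CPM in MCT1KO saline hearts and ran from 2.45 to 3.72 CPM in WT saline hearts, with a log2 difference of 0.69 (SE 0.21, edgeR adjusted p = 0.154).

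**Figure D4:**
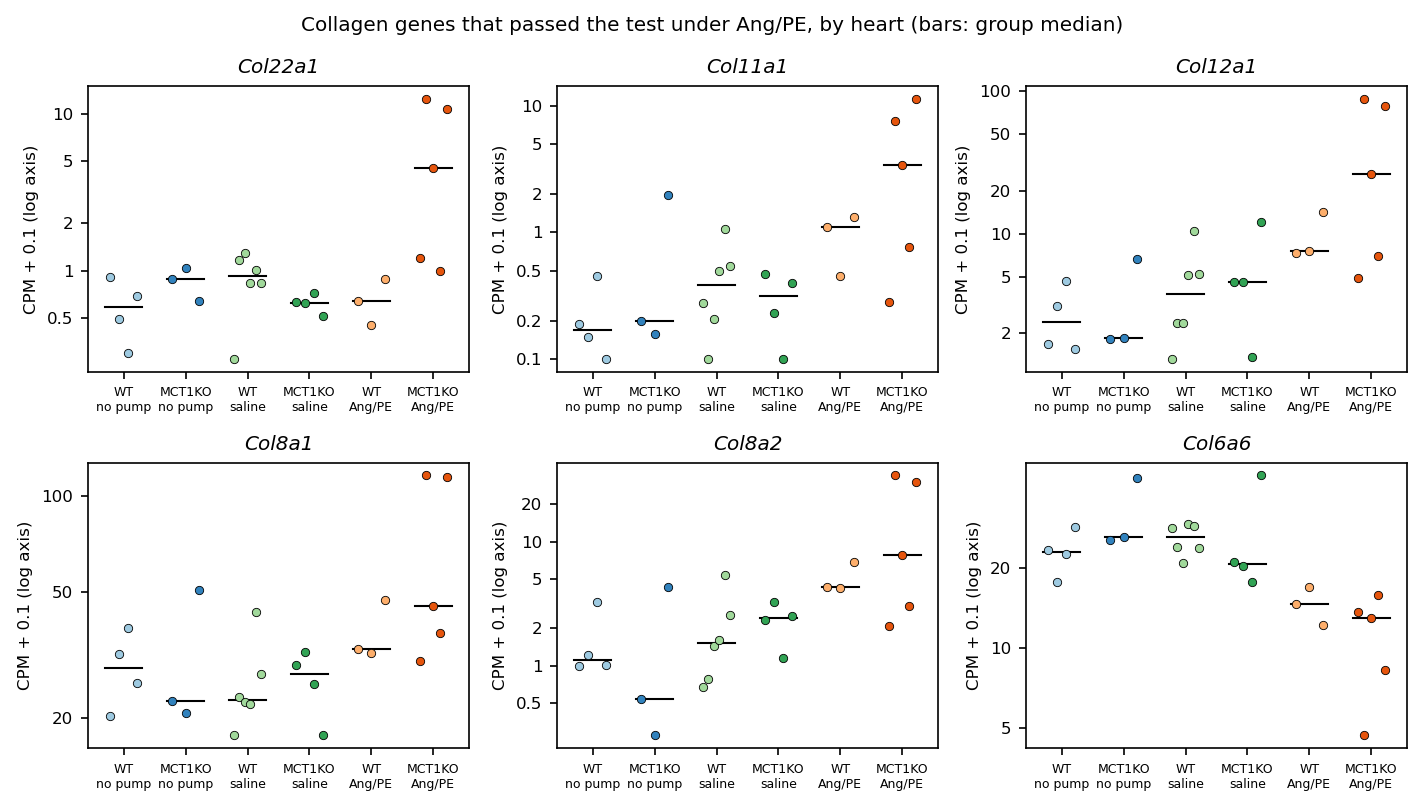
CPM plus 0.1 on a log axis in each of 25 hearts for 6 collagen genes that passed the test against saline, by group, with bars at group medians. For Col22a1, Col11a1, Col12a1, Col8a1 and Col8a2 the MCT1KO Ang/PE group spreads widely, with replicates 2 and 5 highest. Col6a6 is lower with Ang/PE than with saline in each genotype without overlap, as for 2.36% of all genes in MCT1KO and 7.16% in WT hearts.

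Among the other types, Col6a6 was lower under Ang/PE in both genotypes. It encodes a longer type VI chain related to Col6a3. In Ang/PE hearts it was at 13.6, 4.61, 12.9, 15.8 and 8.16 CPM in MCT1KO and at 14.6, 16.9 and 12.1 CPM in WT. With saline it was at 21.02, 20.3, 17.7 and 44.5 CPM in MCT1KO and ran from 20.8 to 29.1 CPM in WT hearts (median 26.1). Without a pump it ran from 17.6 to 28.5 CPM in WT and from 25.5 to 43.4 CPM in MCT1KO hearts. In each genotype every Ang/PE heart thus lay below every saline heart, as for 2.36% of all genes in MCT1KO and 7.16% in WT hearts. Over all groups the highest Ang/PE heart was at 16.9 and the lowest other heart at 17.6 CPM. How many of all genes split the hearts in that wider way was not counted.

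The log2 fold change of Col6a6 against saline was -1.24 (SE 0.29, edgeR adjusted p = 0.0206) in MCT1KO and -0.82 (SE 0.31, adjusted p = 0.165) in WT hearts. Its mean over both genotypes was -1.03 (SE 0.21, edgeR adjusted p = 0.00751). Leaving out any single heart kept that mean change past the threshold, with values from -1.12 to -0.84 and adjusted p up to 0.045. In MCT1KO alone it was -0.85 (adjusted p = 0.152) without saline replicate 4 and -1.15 (0.0514) without Ang/PE replicate 5. Against no pump the change in MCT1KO was -1.53 (SE 0.31, edgeR adjusted p = 0.0239) and in WT hearts -0.66 (SE 0.33, adjusted p = 0.565). The former had adjusted p of 0.077, 0.101 and 0.062 without no-pump replicate 2, no-pump replicate 3 and Ang/PE replicate 5. With the Xist covariate the mean change against saline was -0.85 (edgeR adjusted p = 0.0591), and with the atrial and adipocyte scores -0.77 (adjusted p = 0.478).

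The 3 main type VI chains, Col6a1, Col6a2 and Col6a3, which form beaded filaments around cells, passed in no comparison. Col6a3 came closest: it was at 170.0, 129, 169, 169.8 and 144 CPM in MCT1KO Ang/PE and at 86.5, 74.0 and 118 CPM in MCT1KO no-pump hearts. The Ang/PE hearts lay higher without overlap, as for 4.49% of all genes. The log2 difference was 0.75 (SE 0.18, edgeR adjusted p = 0.0504). Between genotypes without a pump it was -0.33 (SE 0.18, edgeR adjusted p = 0.455). Col6a2 was at 129.7, 130.3, 141 and 134 CPM in MCT1KO saline hearts and ran from 88.6 to 126 CPM in WT saline hearts. This was the only tested collagen gene higher without overlap between genotypes with saline, beside 1.07% of all genes, and its log2 difference was 0.32 (SE 0.13, edgeR adjusted p = 0.229).

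Col8a1 and Col8a2 encode the chains of type VIII collagen, a network collagen of vessels and of fibroblasts. Col8a1 was at 30.2, 116, 45.1, 37.1 and 115 CPM in MCT1KO Ang/PE hearts and at 29.4, 32.3, 25.6 and 17.6 CPM in MCT1KO saline hearts. Col8a2 was at 2.01, 34.0, 7.72, 2.92 and 30.0 CPM and at 2.22, 3.14, 1.06 and 2.42 CPM in the same groups. Replicates 2 and 5 held the highest values of both genes by a wide margin. Replicate 1, and for Col8a2 also replicate 4, overlapped the saline hearts. The log2 fold change of Col8a1 was 1.39 (SE 0.40, edgeR adjusted p = 0.0489) in MCT1KO hearts and 0.96 (SE 0.28, adjusted p = 0.0394) over both genotypes. That of Col8a2 was 2.80 (SE 0.86, adjusted p = 0.0659) in MCT1KO and 2.07 (SE 0.60, adjusted p = 0.0383) over both. In WT hearts Col8a2 was at 4.18, 4.12 and 6.79 CPM with Ang/PE and ran from 0.581 to 5.28 CPM with saline (median 1.44). Col8a1 there was at 33.0, 32.0 and 47.2 CPM and ran from 17.7 to 43.2 CPM (median 22.8). Without a pump Col8a1 was at 22.6, 20.6 and 50.6 CPM in MCT1KO and ran from 20.3 to 38.4 CPM in WT hearts. Col8a2 was at 0.442, 0.176 and 4.20 CPM and ran from 0.902 to 3.15 CPM there. MCT1KO no-pump replicate 3 thus exceeded MCT1KO Ang/PE replicates 1, 3 and 4 for Col8a1 and 1 and 4 for Col8a2. The Col8a1 call in MCT1KO was lost without any 1 of 7 of the 9 hearts compared, with edgeR adjusted p up to 0.217 without saline replicate 4. Over both genotypes Col8a1 was lost without any 1 of 13 and Col8a2 of 11 of the 18 hearts, with adjusted p up to 0.145 and 0.126 without WT Ang/PE replicate 3.

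Col23a1, a transmembrane collagen, was lower under Ang/PE over both genotypes. It was at 2.62, 2.59 and 2.07 CPM in WT Ang/PE and ran from 2.21 to 6.38 CPM in WT saline hearts (median 4.54). In hearts labelled MCT1KO it ran from 1.99 to 3.36 CPM with Ang/PE and was at 4.12, 3.53, 2.94 and 12.9 CPM with saline. The groups overlapped in both genotypes, and saline replicate 4 labelled MCT1KO was the highest heart. The log2 mean change was -0.998 (SE 0.26, edgeR adjusted p = 0.022). In WT hearts alone it was -0.83 (SE 0.38, adjusted p = 0.245). The mean change was -0.94 (adjusted p = 0.0868) without WT Ang/PE replicate 3, and 0.09 (adjusted p = 0.956) with the atrial and adipocyte scores as covariates. No-pump hearts ran from 2.35 to 3.84 CPM, which overlaps both.

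Of the vessel-associated multiplexins, Col15a1 and Col18a1, neither passed. Col15a1 was at 171, 265, 182, 189 and 218 CPM in MCT1KO and at 142, 172 and 145 CPM in WT Ang/PE hearts, with a log2 difference of 0.42 (SE 0.15, edgeR adjusted p = 0.692). Col18a1, which also yields endostatin, was at 23.1, 19.8, 13.2 and 80.9 CPM in MCT1KO saline hearts, with replicate 4 the highest, and at 11.4 to 21.8 CPM in all hearts outside that group.

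A few hearts held most of the highest collagen values. Of the 35 tested collagen genes, 13 had their highest value in MCT1KO Ang/PE replicate 2, 13 in MCT1KO saline replicate 4 and 2 in MCT1KO Ang/PE replicate 5. How many of all genes had their highest value in these hearts was not counted, so this may not be particular to collagen genes. Over 595 pairs of the 35 tested genes, the median Pearson correlation of log2 CPM across the 25 hearts was 0.39, and 0.36 after subtracting group means. It was 0.55 among fibrillar, 0.50 among FACIT, 0.41 among basement membrane and 0.27 among other genes, and after subtracting group means 0.51, 0.49, 0.19 and 0.24. The closest pairs were Col1a1 with Col3a1 (r = 0.97) and Col1a2 (0.96), Col1a2 with Col5a1 (0.95), Col6a1 with Col6a2 (0.95) and Col4a1 with Col4a2 (0.95). Among scarcer genes, Col8a2 with Col12a1 gave 0.94, Col11a1 with Col12a1 0.93 and Col8a1 with Col8a2 0.89, whereas Col12a1 with Col13a1 gave -0.02 and with Col23a1 0.05. The head-to-head pair Col4a5 and Col4a6 gave 0.60, and Col6a3 gave 0.52 with Col6a1. The most negative values were those of Col6a6 with Col8a1 (-0.73), Col22a1 (-0.73) and Col4a1 (-0.71). After subtracting group means these were -0.50, -0.64 and -0.31. All such values come from 25 libraries with shared depth, scaling and treatment, and are given as a description.

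**Figure D5:**
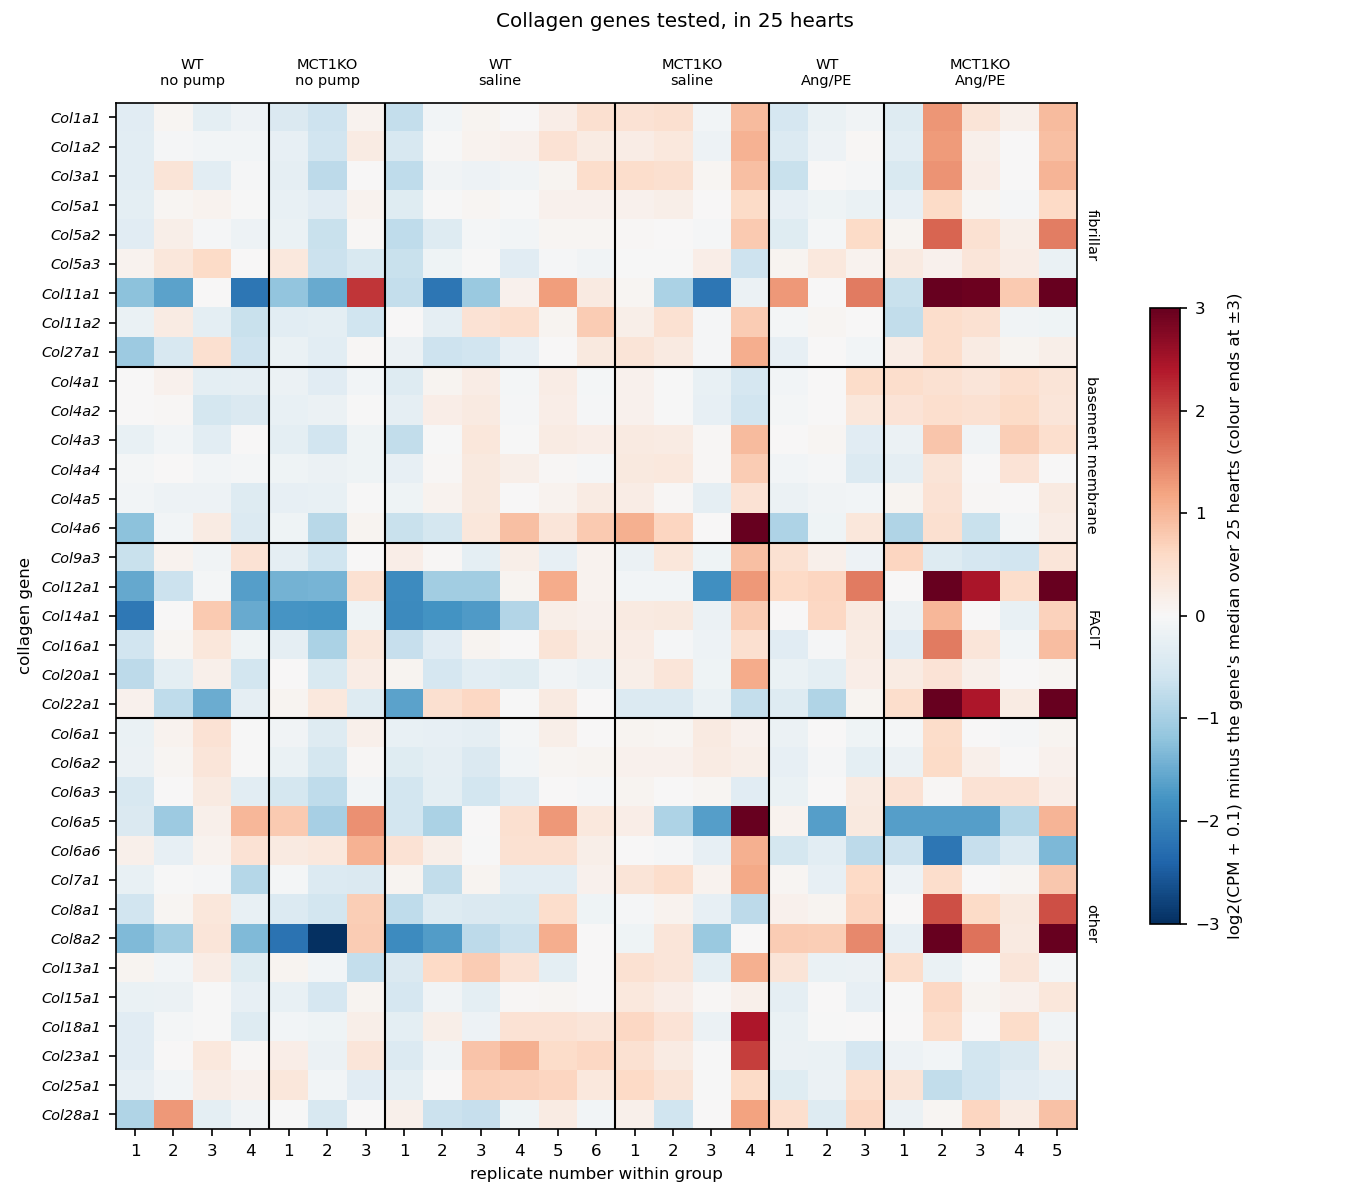
Log2(CPM + 0.1) of the 35 tested collagen genes in 25 hearts, each minus the median of its gene over all hearts, by class and group. Red is above and blue below that median. MCT1KO Ang/PE replicates 2 and 5 are red in most fibrillar rows and in Col12a1, Col22a1, Col8a1 and Col8a2, and MCT1KO saline replicate 4 is red in Col4a6, Col18a1 and Col23a1.

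Markers of activated fibroblasts were high in the same hearts. The 5 genes Postn, Cthrc1, Ltbp2, Cilp and Meox1 summed to 136, 1236, 382, 170.2 and 1175 CPM in the MCT1KO Ang/PE hearts and to 169, 162 and 328 CPM in the WT Ang/PE hearts. They summed to 40.7 to 223 CPM in the 17 hearts without Ang/PE. Of the 5 valve and cartilage markers, Comp, which also binds collagen fibrils, was at 7.59, 179.5, 24.7, 11.6 and 164 CPM in the MCT1KO Ang/PE hearts and made up most of the list's sums of 191 and 169 CPM in replicates 2 and 5. The list as a whole did not rise, with a median log2 difference of -1.24 from MCT1KO saline hearts over its 4 tested genes and 0 of them called. The general fibroblast list, of which Lum and Dcn also bind collagen fibrils, summed to 657, 1076, 633, 612 and 982 CPM in the MCT1KO Ang/PE hearts, where replicates 2 and 5 were again the high ones. It ran from 621 to 1452 CPM in WT no-pump hearts, which overlaps that range. Postn, Cthrc1 and Meox1 passed among the 5 activated markers in MCT1KO hearts against saline, where 1.75% of all genes were called higher. Their log2 fold changes were 2.02, 4.01 and 1.44. Without MCT1KO saline replicate 4 their edgeR adjusted p were 0.113, 0.0929 and 0.129. Cthrc1 was at 0.0914, 6.14, 0.876, 0.0748 and 2.76 CPM in the MCT1KO Ang/PE hearts and at most 0.429 CPM in any other heart. It stayed in the test in only 6 of 9 fits with a single heart left out, so its call rests on the hearts where it was high. The part of activated fibroblasts in the collagen differences was not tested.

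Ratios of partner chains within a library need no scaling between libraries. The count ratio of Col1a1 to Col1a2, which form type I collagen together, ran from 0.844 to 1.17 over the 25 hearts. That of Col1a1 to Col3a1 ran from 0.497 to 0.750, and that of Col4a1 to Col4a2 from 1.18 to 1.58. In exact permutation tests of 3 ratios in 9 pairwise comparisons (two-sided, 27 tests), no ratio passed, and the lowest Benjamini-Hochberg adjusted p was 0.276. With groups this small and 27 tests, a ratio that separated its groups fully in a single comparison could not have passed. The absence of a call therefore does not show that the ratios were alike. The smallest raw exact permutation p was 0.019, for Col4a1 to Col4a2 in WT saline (1.24 to 1.35) against WT no-pump hearts (1.33 to 1.58). A comparison of 3 with 4 hearts cannot give an exact p below 0.0571. Over the same hearts the levels of Col1a1 and Col3a1 spanned 2.04 and 2.12 on the log2 scale.

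Other genes of collagen making were read from lists chosen for their role. Of 18 genes of chain folding and modification, Ang/PE against saline called 1 higher and 1 lower in MCT1KO hearts and 3 higher and 1 lower over both genotypes. Over all genes these shares were 1.75% and 2.7% in MCT1KO hearts and 3.89% and 4.22% over both genotypes, and they apply to each list below. P4ha1, a prolyl 4-hydroxylase subunit that stabilises the helix, stood at 51.8 ± 5.26 CPM (SD, n = 4) with saline and rose to 71.8 ± 9.43 CPM (SD, n = 5) with Ang/PE in MCT1KO hearts (log2 fold change 0.47, SE 0.10, edgeR adjusted p = 0.0141). P4ha2 and the lysyl hydroxylase Plod2 rose over both genotypes by 0.35 and 0.36, and P3h4, a component of a lysyl hydroxylase complex, fell by 0.53. For the genes of these lists only fits with a single heart left out are given, and the covariate fits are not reported here. P4ha1 kept its call in both comparisons with any single heart left out. P3h4 kept it over both genotypes but in MCT1KO hearts missed without saline replicate 2 or 4 or Ang/PE replicate 2 or 5 (edgeR adjusted p up to 0.157). P4ha2 kept its call without 10 and Plod2 without 12 of 18 hearts, with adjusted p up to 0.0694 without WT Ang/PE replicate 2 and 0.184 without WT Ang/PE replicate 3. Serpinh1, the collagen chaperone, was at 185 ± 5.91 and 212 ± 46.6 CPM in these MCT1KO groups and passed in neither comparison.

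Of 8 procollagen processing genes, 0 passed in MCT1KO hearts and 1 over both genotypes, where Tll2, a tolloid-like protease, fell by 1.67 on the log2 scale (SE 0.51, edgeR adjusted p = 0.0452), a call kept without 4 of 18 hearts left out in turn (up to 0.115 without WT Ang/PE replicate 3). Of 9 fibril-associated genes, Tnxb, a tenascin that links fibrils, fell in MCT1KO hearts by 0.59 (SE 0.13) and over both genotypes by 0.50 (SE 0.09). Without MCT1KO saline replicate 4 the former was -0.47 (edgeR adjusted p = 0.0887), and the latter kept its call without any single heart, as did Aspn. The small proteoglycan Aspn rose from saline over both genotypes by 1.32 (SE 0.27, edgeR adjusted p = 0.0075). Its no-pump and Ang/PE hearts overlapped, at 18.5 to 32.4 and 28.03 to 38.6 CPM in WT. In MCT1KO hearts these ranges were 13.9 to 22.8 and 18.5 to 78.6 CPM. Against no pump, 0 of the 9 fibril-associated genes were called in either genotype. At an unadjusted p below 0.05, 7 were higher and 1 lower in MCT1KO hearts, beside 7.01% and 6.09% of all genes. Of 8 receptor and uptake genes, the collagen receptor kinase Ddr2 was at 63.1, 58.0, 62.9 and 97.6 CPM with saline and 47.0 to 55.2 CPM with Ang/PE in MCT1KO hearts, a log2 difference of -0.45 (SE 0.12, edgeR adjusted p = 0.0328). Without saline replicate 4, the high one, it was -0.25 (adjusted p = 0.232), and it also missed without Ang/PE replicate 1, 3, 4 or 5. The integrin chains Itgb1 and Itga11 rose over both genotypes by 0.27 and 0.76, and kept their calls without 15 and 5 of 18 hearts, with edgeR adjusted p up to 0.140 and 0.126 without WT Ang/PE replicate 3. In WT hearts 0 genes of the 4 lists passed for this step in the edgeR test, and the genes with an unadjusted p below 0.05 numbered 2 higher and 1 lower in each list except procollagen processing, which had 1 lower, beside 9.47% of all genes higher and 9.58% lower. Lum and Dcn stand in both the fibril-associated and the fibroblast list, and Comp in both the former and the valve and cartilage list.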

How the data were processed

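RNA from 25 hearts was sequenced as stranded, rRNA-depleted libraries, per the labels' protocols. The authors deposited a table of raw read counts per gene for 56941 genes. Cutadapt 1.16, STAR 2.7.9a, featureCounts 1.6.3, DESeq2 1.42.1 and the build GRCm39 are named in the submitters' processing notes, without their roles, while the annotation release and strand setting are not given in the sources used here. Genes without a symbol held 0.778% of reads.

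From these counts, edgeR 4.0.16 (R 4.3.3) fitted 1 quasi-likelihood model of 6 groups to all hearts with TMM scaling, after its filter on low counts left 17682 genes. Benjamini-Hochberg adjustment ran over all of them within each of 12 comparisons, with a threshold of 0.05 and a prior count of 2. The fit was tested on simulated data. Libraries held 12216704 to 24880683 counts. Groups came from the sample labels. Nothing there says that hearts of a group came from separate litters or days, so p-values measure the spread between these samples. All 43 replicate pairs differed by more than sampling noise (chi-square per degree of freedom 3.33 or more).

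The collagen genes and all lists were chosen with earlier results of these data known. Genes named with values are 15 major chains, every collagen gene called in a comparison, and the 2 of smallest p where none was called, and others named were chosen after their values were seen. Alternatives were RLE scaling, DESeq2 1.42.0, no low-count filter, a replicate block, Xist or atrial and adipocyte scores as covariates, only the groups compared, and each heart left out. For the folding, processing, fibril, receptor and activated fibroblast genes these alternatives were added after seeing the data. Promoters are from RefSeq on GRCm38.p6 and exon lengths from GENCODE M21 on GRCm38, used for names and lengths and not for the counts' coordinates.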

Additional observations from a re-analysis of the deposited data

Results flagged for a closer look

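In each group of 4 to 10 hearts, the highest and lowest log2 CPM of the named collagen genes were compared with the rest by Dixon's gap ratio, which flags about 1 in 20 groups by chance. Of 100 groups tested, 7 held an outlying heart, where 5 would come by chance. Among fibrillar genes, Col1a2 was lowest in WT no-pump replicate 1 (7.29, the others 7.52 to 7.55). Col5a1 was lowest in WT saline replicate 1 (6.24, the others 6.57 to 6.73), and Col5a2 highest in MCT1KO saline replicate 4 (6.17, the others 5.34 to 5.41). Among type VI chains, Col6a1 was highest in MCT1KO Ang/PE replicate 2 (7.31, the others 6.71 to 6.85). Col6a3 was lowest in MCT1KO saline replicate 4 (6.62, the others 6.99 to 7.05). Col22a1 was lowest in WT saline replicate 1 (-1.78, the others -0.23 or more), where it had 3 counts. Col8a2 was highest in WT no-pump replicate 3 (1.71, the others 0.03 to 0.31).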

How the results depend on the processing

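Counts of called collagen genes moved with the processing, and RLE scaling moved none of them by more than 1.5 times. For Ang/PE against saline in MCT1KO hearts (7 genes), DESeq2 called 11, no low-count filter 3, the atrial and adipocyte covariates 0 and a fit of only those groups 0. Leaving out single hearts gave 0 to 8. For the mean of both genotypes (8 genes), no filter gave 3, the Xist covariate 0, the atrial and adipocyte covariates 0, only those groups 4, and single hearts left out 1 to 10. For Ang/PE against no pump in MCT1KO hearts (2 genes), DESeq2 called 8, no filter 0, the Xist covariate 0, the atrial and adipocyte covariates 5, only those groups 0, and single hearts left out 0 to 2. Where 0 genes were called, DESeq2 gave 1 for MCT1KO against WT with Ang/PE and 1 for saline against no pump in MCT1KO hearts. Only the groups compared gave 1 for Ang/PE against saline and 2 for saline against no pump, both of WT. Leaving out single hearts gave 0 to 3 for MCT1KO against WT with saline and 0 to 3 for saline against no pump in MCT1KO hearts, with 3 in both without MCT1KO saline replicate 3. With the atrial and adipocyte covariates, Col4a6 in MCT1KO hearts turned to 0.53 and the mean change of Col23a1 to 0.0907. The number of detected genes was 36 under both stricter rules. The cause of these shifts was not tested.

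With the replicate number as a replicate block, 5 collagen genes were called for Ang/PE against saline in MCT1KO hearts, 2 for the mean of both genotypes and 1 for Ang/PE against no pump in MCT1KO hearts. Over 52 same-numbered pairs the mean correlation of deviations was 0.0094 and 9 exceeded 0.1. Such a mean cannot show whether some same-numbered hearts share more than a number, and the labels do not say.

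Differences in log2 count ratio that passed no test changed sign when single hearts were left out. Col1a1 to Col1a2 ran from -0.0521 to 0.0422 for Ang/PE against saline in WT and from -0.0645 to 0.0365 in MCT1KO hearts, from -0.0949 to 0.0123 for Ang/PE against no pump in WT, and from -0.0809 to 0.0318 in WT hearts for saline against no pump. Col1a1 to Col3a1 ran from -0.0293 to 0.17 for Ang/PE against no pump in WT and from -0.0585 to 0.10 in MCT1KO hearts. Col4a1 to Col4a2 ran from -0.00982 to 0.10 for Ang/PE against no pump in MCT1KO hearts. Genes with few counts, such as Col11a1 and Col22a1, have fold changes that depth limits most.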
